A study of Mus musculus with 72 samples.

Results

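Respiratory complex I, the NADH:ubiquinone oxidoreductase of the inner mitochondrial membrane, was followed at the transcript level in mouse hearts collected long after whole-body irradiation. Every gene whose symbol in the array annotation begins with Nduf, followed by a, b, c, s or v and a digit, was taken as a member. The rule found 37 genes of the 19505 measured. Genes of assembly factors (Ndufaf) are not members.

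Complex I is L-shaped. Its matrix arm takes electrons from NADH through a flavin and a chain of iron-sulfur clusters to ubiquinone, and its membrane arm pumps protons. Core subunits carry out the reaction, and accessory subunits surround them and are needed for assembly and stability. The heart, which draws nearly all of its ATP from oxidative phosphorylation, holds the complex in large amounts. By these roles the members comprised 6 core subunits (Ndufs1, Ndufs3, Ndufs7, Ndufs8, Ndufv1 and Ndufv2), 9 accessory subunits of the matrix arm and 19 accessory subunits of the membrane arm. Ndufa4 is now placed in complex IV, and Ndufa4l2 is its relative that is induced by hypoxia. Ndufb4b, a near copy of Ndufb4, was not placed, and since the probes of such copies can share signal both values are uncertain. Core subunits encoded by mitochondrial DNA were not analysed here.

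Female CB6F1/Hsd mice aged 100 to 120 days received a single whole-body exposure, and their hearts were frozen 16 months later. Cs-137 gamma rays were given at 40, 80, 120 or 160 cGy, Si-14 ions (260 MeV/n, about 70 keV/µm) at 4, 8, 16 or 32 cGy, and Ti-22 ions (1000 MeV/n, about 100 keV/µm) at 3, 6.5, 13 or 26 cGy. Each radiation type had its own control mice, which were held in the same kind of plastic box without irradiation and are called sham. Each of the 72 arrays measured RNA from heart tissue, 24 per radiation type, in 15 groups of 4 to 5 hearts, and replicates are taken as separate animals although the labels do not state it in so many words. All groups shared strain, sex and time, so nothing here speaks to males, other ages or earlier times, and whole-heart RNA cannot tell fewer cells of a type from less RNA per cell.

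Levels are log2 signals after quantile normalization, in which a difference of 1 is a doubling. On every array all 37 members exceeded the median signal of negative controls, and 34 exceeded the 90th percentile of these controls. The 8 markers of ventricular muscle (among them Myh6, Tnnt2 and Ryr2) were above that percentile on all 72 arrays. The labels name 2 processing batches, of 43 and 29 arrays. Cs 160 cGy lay wholly in batch 1, Si sham wholly in batch 2, Ti 6.5 cGy had 3 hearts in batch 1 and 1 in batch 2, and the other groups had 3 and 2. Some hearts stood apart. Cs 160 cGy replicate 4 and Ti 6.5 cGy replicate 3, labelled batch 1, had member levels like those of batch 2, and Si sham replicate 3, Si 8 cGy replicate 5 and Si 16 cGy replicate 5 lay high within batch 2. The main results that rest on them are given with and without them.

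The letters of some promoters are shown first, as a description of the sequence at the starts of these genes. The part of these promoters in how the members varied was not tested. NRF1, GABP and ERR are transcription factors known to bind promoters of respiratory chain genes. RefSeq promoters (build GRCm38.p6, 250 bases before to 50 after the transcription start) matched 33 of the 37 members. The 5 shown belong to Ndufb6, Ndufb4, Ndufs5 and Ndufs3, which were lower at Cs 160 cGy, and to Ndufs8, a core subunit that was not called there. All are on the minus strand and are written 5′ to 3′ along the gene, at chr4:40279372-40279671 (Ndufb6), chr16:37654319-37654618 (Ndufb4), chr4:123718137-123718436 (Ndufs5), chr2:90904672-90904971 (Ndufs3) and chr19:3912725-3913024 (Ndufs8). Capitals mark matches on either strand to NRF1 (GCGCANGC), GABP (CCGGAAG) or ERR (TNAAGGTCA).
Ndufb6: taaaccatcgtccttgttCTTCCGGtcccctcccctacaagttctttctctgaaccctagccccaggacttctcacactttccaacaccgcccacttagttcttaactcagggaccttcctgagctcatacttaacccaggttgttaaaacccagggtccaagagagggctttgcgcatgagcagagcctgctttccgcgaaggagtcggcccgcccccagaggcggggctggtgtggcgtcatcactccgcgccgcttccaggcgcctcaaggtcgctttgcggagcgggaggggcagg
Ndufb4: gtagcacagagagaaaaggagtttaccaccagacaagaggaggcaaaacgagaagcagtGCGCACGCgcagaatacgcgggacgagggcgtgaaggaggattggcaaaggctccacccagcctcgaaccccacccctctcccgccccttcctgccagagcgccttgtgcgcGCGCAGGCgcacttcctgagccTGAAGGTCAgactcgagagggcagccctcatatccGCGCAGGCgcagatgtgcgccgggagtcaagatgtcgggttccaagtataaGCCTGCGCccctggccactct
Ndufs5: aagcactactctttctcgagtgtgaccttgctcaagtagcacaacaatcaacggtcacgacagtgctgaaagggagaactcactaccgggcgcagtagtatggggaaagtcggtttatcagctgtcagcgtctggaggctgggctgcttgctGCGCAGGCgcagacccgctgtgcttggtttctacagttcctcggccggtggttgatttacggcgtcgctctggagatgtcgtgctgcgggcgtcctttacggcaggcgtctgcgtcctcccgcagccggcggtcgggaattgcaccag
Ndufs3: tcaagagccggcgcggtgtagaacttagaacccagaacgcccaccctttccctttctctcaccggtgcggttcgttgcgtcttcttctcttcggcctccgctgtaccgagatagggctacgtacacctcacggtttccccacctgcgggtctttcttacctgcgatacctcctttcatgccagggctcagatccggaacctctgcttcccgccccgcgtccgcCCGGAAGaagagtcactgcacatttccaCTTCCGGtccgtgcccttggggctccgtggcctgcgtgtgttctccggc
Ndufs8: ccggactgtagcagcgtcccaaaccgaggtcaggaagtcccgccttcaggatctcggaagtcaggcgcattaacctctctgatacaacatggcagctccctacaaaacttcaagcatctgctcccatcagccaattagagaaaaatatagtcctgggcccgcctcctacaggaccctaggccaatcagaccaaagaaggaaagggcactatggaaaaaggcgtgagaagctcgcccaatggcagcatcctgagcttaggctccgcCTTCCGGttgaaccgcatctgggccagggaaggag

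Ndufb4 held 4 matches to the NRF1 motif and 1 to the ERR motif, Ndufs5 held 1 NRF1 match, Ndufs3 held 2 GABP matches, and Ndufb6 and Ndufs8 held 1 GABP match each. No match overlapped another. Over the 33 members, 9 held the NRF1 motif, against 9.95% of all 32851 promoters. The GABP motif was in 4 members (8.86% of all promoters) and the ERR motif in 1 (1.28%). The motif AAGATGGC of YY1, a factor of many housekeeping promoters, was in 7 members (2.75% of all), and the E-box CACGTG was in 2 (7.15%). Of the 12 members lower at Cs 160 cGy, 11 had a promoter in the table, and 4 of these held NRF1, 2 held GABP, 1 held ERR and 1 held YY1. A match is a description of letters and not of a bound site.

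The members varied together from heart to heart, and over all 72 hearts the accessory subunits followed the members' mean more closely than the core subunits. With batch taken out, each member was correlated with the mean of the other 36 over 72 hearts. The median Pearson r was 0.624, against 0.014 for the correlation of all other genes with the members' mean, whose 95th percentile was 0.493. Of the members, 25 had an r over 0.5. The closest were Ndufs4 (0.906), an accessory subunit that stabilises the NADH-binding end, Ndufb11 (0.897) and Ndufa2 (0.878). The farthest were Ndufc1 (-0.419), Ndufs7 (-0.305) and Ndufs8 (-0.171), of which Ndufs7 and Ndufs8 carry the clusters that pass electrons on to ubiquinone. By role the median r was 0.835 in the matrix arm, 0.595 in the membrane arm and 0.245 in the core. The mean is made mostly of accessory subunits, 28 of the 37 members against 6 core subunits. So these medians do not show that core subunits vary together less among themselves.

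Part of this pattern came from 5 hearts. Without Cs 160 cGy replicate 4, Ti 6.5 cGy replicate 3 and the 3 high Si hearts, the median r over 67 hearts was 0.508, and 20 members had an r over 0.5, while all other genes had a median of 0.0111 and a 95th percentile of 0.338. The distance between roles then shrank, with medians of 0.548, 0.508 and 0.351 in the matrix arm, membrane arm and core. Ndufc1 moved to 0.0414 and Ndufs7 to -0.0263, while Ndufb10 (0.794) and Ndufa2 (0.778) stayed close to the rest. These are descriptions over hearts that share batch, exposure group and RNA handling, and genes are not independent replicates.

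**Figure D1:**
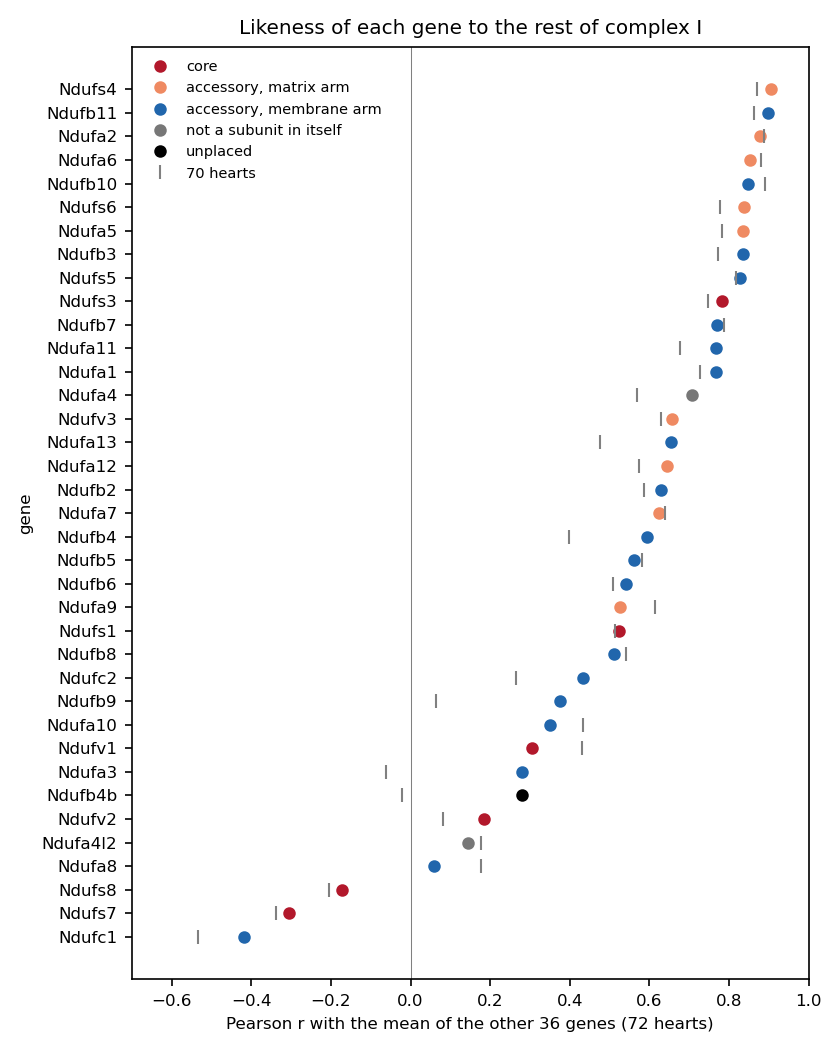
Pearson r of each complex I gene with the mean of the other 36, over 72 hearts after batch was taken out (points, coloured by role), with ticks for the same r over 70 hearts without Cs 160 cGy replicate 4 and Ti 6.5 cGy replicate 3. Most accessory subunits lie above 0.5, and Ndufc1, Ndufs7 and Ndufs8 lie below 0.

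The genes outside the rule that were most like the members' mean over 72 hearts were mostly of the same organelle. Atp5k, a small subunit of ATP synthase, led with an r of 0.911, followed by Higd1a (0.875), a protein of the inner mitochondrial membrane. Uqcr11 and Uqcr10 of complex III had an r of 0.87 each, and Uqcc2, an assembly factor of that complex, 0.858. Cox4i1 of complex IV (0.857), Atp5e of ATP synthase (0.849), Dnajc15 (0.842), Chchd1 of the mitochondrial ribosome (0.837) and Drap1, a nuclear repressor of transcription (0.836), completed the first 10. Over the 67 hearts these 10 genes had an r from 0.638 (Drap1) to 0.796 (Atp5k). As lists, the mean of complexes II to IV followed the members with an r of 0.879, ATP synthase with 0.851, ventricular markers with 0.794 and cytosolic ribosomal proteins with 0.773. Assembly factors of complex I followed less closely (0.387), and regulators of mitochondrial biogenesis such as Ppargc1a and Tfam had an r of 0.00933. Over the 67 hearts complexes II to IV and ATP synthase had an r of 0.858 each, while ventricular markers were at 0.531, ribosomal proteins at 0.401, assembly factors at 0.648 and regulators at 0.136.

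The comparison of processing batches called the most members. Batch 2 hearts had lower levels of most complex I genes. Fitted with limma over the 72 arrays, with exposure group as a term, 26 members were lower and 5 higher in batch 2 at an adjusted p under 0.25 (Benjamini-Hochberg over all genes), and 29 passed at 0.05. Over all genes 65.2% were called, and 31.9% were lower. The median member difference was -0.16, against 0.00 over all genes. Ndufb3, a small membrane subunit, differed most, by -0.63, from 8.01 to 9.09 (median 8.77) over batch 1 hearts and from 7.81 to 8.78 (median 8.17) over batch 2. Ndufb4, also of the membrane arm, ran from 10.63 to 11.39 (median 11.15) and from 10.56 to 10.89 (median 10.74), a difference of -0.44 (adjusted p = 2.36e-18). Ndufa4 ran from 11.58 to 12.04 (median 11.91) and from 11.44 to 11.71 (median 11.57), a difference of -0.34 (adjusted p = 2.79e-18). The batches overlapped in each of these genes.

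By role, the median batch difference was 0.00 in the core, -0.18 in the matrix arm and -0.27 in the membrane arm. Of the 6 core subunits 2 were lower and 2 higher, of the 9 in the matrix arm 6 were lower, and of the 19 in the membrane arm 16 were lower and 2 higher. The 5 higher members were Ndufa4l2 (0.21), Ndufa8 (0.12), Ndufa10 (0.11), Ndufs7 (0.09) and Ndufv1 (0.08), the flavin-bearing subunit where NADH is oxidised. Fitted within each radiation type, the median member difference was -0.28 in Cs, -0.09 in Si and -0.14 in Ti hearts, and 29 members had the same sign in all 3 types. Markers of other cells moved with batch as well: without the 2 arrays that stood apart, all 5 atrial markers (median -2.12), all 5 white adipocyte markers (median -0.75) and all 5 fibroblast markers (median -0.18) were lower in batch 2. Of 60 ribosomal protein genes 48 were lower (median -0.28). Their part in the batch difference of the members was not tested.

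In several members both batch 1 hearts that stood apart had levels like those of batch 2. Ndufa4 was at 11.58 in Cs 160 cGy replicate 4 and at 11.58 in Ti 6.5 cGy replicate 3, while the other 41 batch 1 hearts were at 11.8 or above. Ndufa13, an accessory subunit of the membrane arm also known as GRIM-19, was at 10.75 and 10.82 in them and at 10.97 or above in the other 41. Against the other batch 1 hearts of the same group, the median deviation of the 37 members was -0.29 in the Cs heart and -0.21 in the Ti heart, and it lay between -0.11 and 0.11 in the other 41. Over the 37 members these deviations followed the batch difference of the other 70 hearts with an r of 0.723 and 0.925, and over all genes with 0.528 and 0.686. In the other 41 batch 1 hearts this r lay between -0.537 and 0.672 over the members and between -0.213 and 0.225 over all genes. What set these arrays apart was not tested, and their batch labels were kept.

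**Figure D2:**
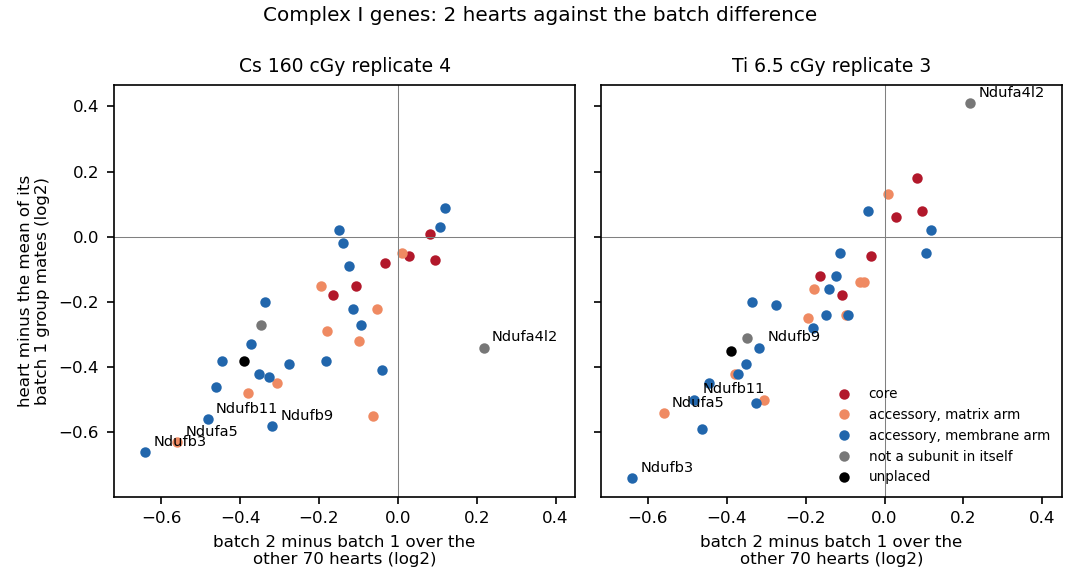
Deviation of each complex I gene from the batch 1 hearts of the same group (y axis, log2) in Cs 160 cGy replicate 4 and in Ti 6.5 cGy replicate 3, against the difference of batch 2 from batch 1 over the other 70 hearts (x axis, log2). The points of both hearts rise along the batch difference, with an r of 0.723 and 0.925.

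At Cs 160 cGy a part of the complex I genes was called lower than in Cs sham hearts. In the limma fit of the 24 Cs hearts with batch as a term, 12 members were downregulated and 1, Ndufa4l2, was upregulated at an adjusted p under 0.25, which is 35.1% of the 37 members, beside 6.91% of all genes in either direction and 3.78% lower. None passed at 0.05. The median member difference was -0.14 (all genes, 0.00), and 31 of the 37 were below 0. Calls were made in 9 of 19 membrane arm subunits (median -0.21), 2 of 9 matrix arm subunits (median -0.16) and 1 of 6 core subunits (median -0.01). Without replicate 4 the calls were reduced to Ndufb6 and Ndufa4l2 (5.15% of all genes called), the median was -0.09, and the medians by role were -0.14, -0.13 and 0.01.

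**Figure D3:**
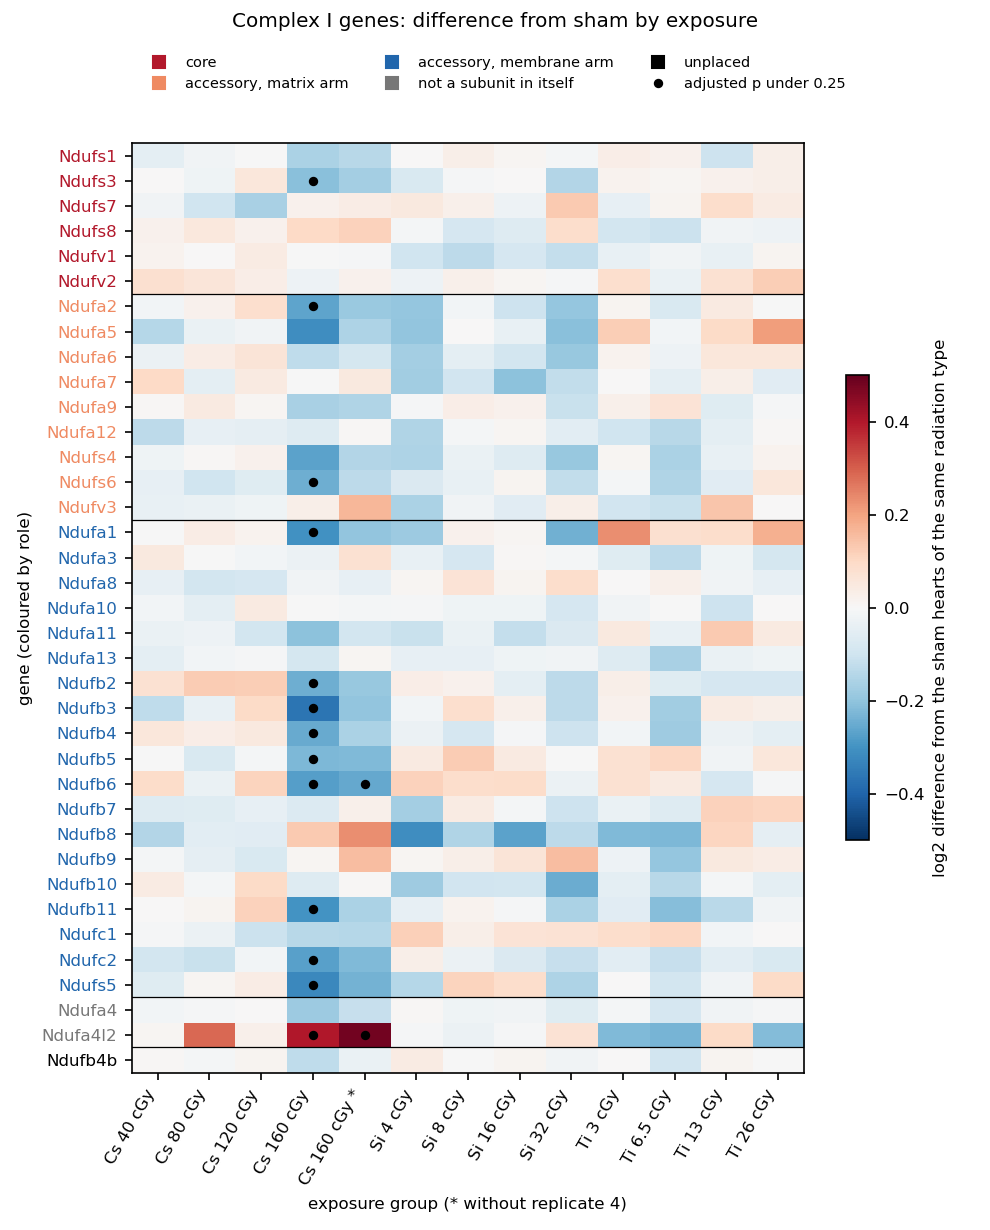
Difference of each complex I gene from the sham group of its radiation type (colour, log2, limma with batch as a term), with genes in rows by role and the 12 exposures plus Cs 160 cGy without replicate 4 in columns. Dots mark an adjusted p under 0.25, which occur at Cs 160 cGy (13 genes, 2 without replicate 4) and in no other column.

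Since the Cs 160 cGy hearts were all in batch 1, the sham hearts of that batch are the direct comparison, and sham values are given in the order of replicates 1 to 3 (batch 1), then 4 and 5 (batch 2). Ndufb6, a subunit at the distal end of the membrane arm, had levels of 9.86, 9.88, 9.85, 9.61 and 9.58 in sham hearts and 9.58, 9.53, 9.76 and 9.53 at 160 cGy. All 4 irradiated hearts were below the batch 1 sham hearts, and replicate 4 did not stand out. The difference was -0.28 ± 0.0757 (SE, adjusted p = 0.102), and -0.25 without replicate 4 (adjusted p = 0.183). Ndufb5, which lies in the same region, had 10.51, 10.31, 10.43, 10.27 and 10.13 in sham and 10.19, 10.19, 10.30 and 10.20 at 160 cGy. Here too the 4 hearts were below the batch 1 sham hearts and close together, with a difference of -0.22 ± 0.0827 (adjusted p = 0.226) that was of the same size without replicate 4 (-0.22) but no longer called (adjusted p = 0.3).

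Ndufs5, a subunit on the intermembrane face, had 9.62, 9.53, 9.67, 9.20 and 9.02 in sham and 9.33, 9.47, 9.42 and 9.07 at 160 cGy. Ndufb3 had 8.94, 8.80, 8.85, 8.24 and 8.05 in sham and 8.66, 8.65, 8.76 and 8.03 at 160 cGy. Ndufb4 had 11.19, 11.15, 11.15, 10.61 and 10.58 in sham and 11.06, 10.84, 11.14 and 10.63 at 160 cGy. In each of these the 4 hearts were below the batch 1 sham hearts, narrowly so in Ndufb4, and replicate 4 was the lowest and lay at or close to the level of the batch 2 sham hearts. The differences were -0.32 ± 0.0994 (adjusted p = 0.145), -0.36 ± 0.129 (adjusted p = 0.209) and -0.25 ± 0.0895 (adjusted p = 0.208). Without replicate 4 they were -0.24, -0.20 and -0.16, with adjusted p of 0.305, 0.465 and 0.439.

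The other membrane arm subunits that were called overlapped with the batch 1 sham hearts. Ndufa1, a small X-linked subunit, had 9.52, 9.48, 9.49, 8.92 and 8.88 in sham and 9.49, 9.20, 9.22 and 8.88 at 160 cGy, a difference of -0.30 ± 0.0938 (adjusted p = 0.145). Ndufc2 had 10.84, 10.71, 10.79, 10.50 and 10.49 in sham and 10.57, 10.48, 10.74 and 10.39 at 160 cGy, a difference of -0.27 ± 0.09 (adjusted p = 0.173). In both, 1 irradiated heart reached the batch 1 sham hearts. Ndufb11, also X-linked, had 9.38, 9.17, 9.34, 8.56 and 8.67 in sham and 9.27, 8.96, 9.18 and 8.58 at 160 cGy, a difference of -0.30 ± 0.114 (adjusted p = 0.242). Ndufb2 had 9.89, 9.68, 10.01, 9.60 and 9.66 in sham and 9.81, 9.48, 9.78 and 9.47 at 160 cGy, a difference of -0.24 ± 0.0933 (adjusted p = 0.243). In these 2 genes a pair of irradiated hearts lay within the range of the batch 1 sham hearts. None of the 4 was called without replicate 4, where the differences were -0.20, -0.22, -0.16 and -0.19 in the same order.

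In the matrix arm Ndufs6, a zinc-binding subunit, had 10.67, 10.65, 10.79, 10.37 and 10.44 in sham and 10.62, 10.59, 10.64 and 10.17 at 160 cGy. The 4 hearts were below the batch 1 sham hearts, 3 of them by little, and replicate 4 was below every sham heart. The difference was -0.24 ± 0.0934 (adjusted p = 0.242), and -0.13 without replicate 4 (adjusted p = 0.519). Ndufa2, at the NADH-binding end, had 9.60, 9.40, 9.64, 9.25 and 9.15 in sham and 9.29, 9.43, 9.31 and 9.03 at 160 cGy. Its groups overlapped by 1 heart, and the difference was -0.26 ± 0.0998 (adjusted p = 0.235), or -0.19 without replicate 4 (adjusted p = 0.461). Just outside the threshold lay Ndufa5 (-0.31) and Ndufs4 (-0.27), both at an adjusted p of 0.269.

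Among the core subunits Ndufs3, a scaffold of the module that binds ubiquinone, was the one called. It had 11.27, 11.31, 11.38, 11.21 and 11.14 in sham and 11.20, 11.10, 11.22 and 11.02 at 160 cGy, with all 4 hearts below the batch 1 sham hearts. The difference was -0.21 ± 0.0705 (adjusted p = 0.184), or -0.17 without replicate 4 (adjusted p = 0.317). Ndufs1, which carries iron-sulfur clusters, had 10.73, 10.65, 10.79, 10.55 and 10.51 in sham and 10.54, 10.43, 10.67 and 10.47 at 160 cGy. It was not called (-0.16, 95% interval -0.311 to -0.00608, adjusted p = 0.387). Intervals here use the normal distribution and are narrower than the moderated t of limma would give. An end this close to 0 therefore does not set Ndufs1 apart from 0.

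The other 4 core subunits were not called. Ndufv1 had 11.30, 11.40, 11.35, 11.40 and 11.46 in sham and 11.36, 11.35, 11.36 and 11.37 at 160 cGy (0.00, 95% interval -0.131 to 0.129). Ndufv2, its partner in the NADH-binding module, had 10.69, 10.60, 10.74, 10.63 and 10.39 in sham and 10.69, 10.69, 10.77 and 10.54 at 160 cGy (-0.02, interval -0.185 to 0.136). For both, differences as large as those of the called membrane arm subunits lay outside the interval. Ndufs7 had 10.63, 10.62, 10.51, 10.68 and 10.82 in sham and 10.54, 10.79, 10.51 and 10.54 at 160 cGy (0.02, interval -0.147 to 0.187). Ndufs8 had 10.57, 10.56, 10.44, 10.54 and 10.67 in sham and 10.67, 10.63, 10.69 and 10.60 at 160 cGy (0.10, interval -0.0434 to 0.246). The 4 irradiated hearts were above the batch 1 sham hearts in Ndufs8, which was not called (adjusted p = 0.603). The difference between roles was not tested as such.

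Ndufa4l2 moved the other way. It had 6.64, 6.49, 6.50, 7.03 and 7.12 in sham and 6.89, 7.33, 7.11 and 6.77 at 160 cGy. All 4 irradiated hearts were above the batch 1 sham hearts, 1 of them was also above both batch 2 sham hearts, and replicate 4 was the lowest. The difference was 0.40 ± 0.15 (95% interval 0.105 to 0.694, adjusted p = 0.234), and 0.48 without replicate 4 (adjusted p = 0.203). Ndufa4 had 11.94, 11.89, 11.98, 11.55 and 11.61 in sham and 11.83, 11.80, 11.92 and 11.58 at 160 cGy, where replicate 4 alone was at the level of batch 2, and it was not called (-0.18, 95% interval -0.339 to -0.0219, adjusted p = 0.331).

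**Figure D4:**
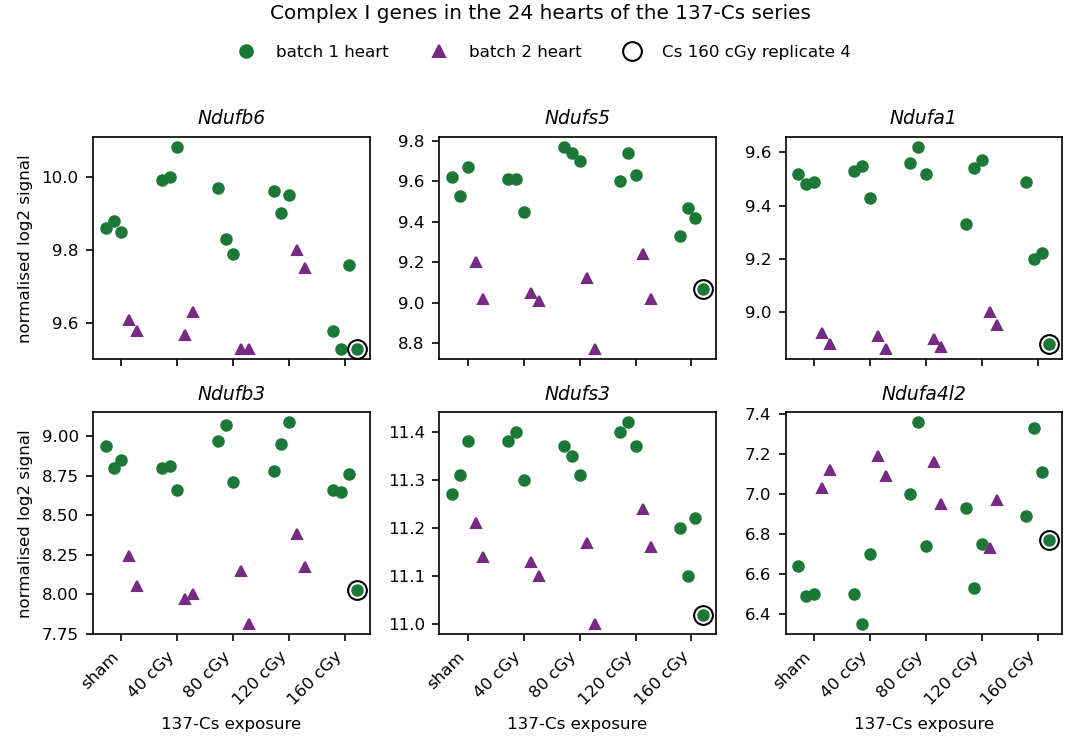
Quantile-normalized log2 level of 6 complex I genes in each of the 24 Cs hearts by dose (x axis, cGy), with batch shown by the marker and Cs 160 cGy replicate 4 ringed. At 160 cGy Ndufb6, Ndufs5, Ndufb3 and Ndufs3 lie below the batch 1 sham hearts in all 4 hearts, and Ndufa4l2 lies above them.

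Counted over hearts, 9 of the 37 members had all 4 irradiated hearts below the 3 batch 1 sham hearts (Ndufa9, Ndufa11, Ndufb3, Ndufb4, Ndufb5, Ndufb6, Ndufs3, Ndufs5 and Ndufs6), beside 4.98% of all genes. Of the 12 called members 7 did so, and none had its 4 hearts below all 5 sham hearts. Replicate 4 was the lowest of the 4 hearts in 10 of the 12. Without it each of the 12 kept between 52.9% and 97.8% of its difference (median 72.1%). Of the downregulated calls 1 of 12 was kept among the members and 403 of 738 (54.6%) over all genes. The calls among the 37 members also depended on other single hearts. The count of 13 became 2 without Cs sham replicate 4, 3 without Cs sham replicate 1 and 4 without Cs sham replicate 3. It became 8 without Cs sham replicate 5 and 7 without Cs 160 cGy replicate 2. The share of all genes called in these fits is not given here, so whether the members lost more calls than the array is not shown. The 12 were picked by their calls in these same hearts, so the difference and the sign they kept are no separate support. Other ways of handling batch kept the sign of all 12 differences but no call. Within batch 1 alone the 12 ran from -0.34 to -0.18 (adjusted p from 0.429 to 0.62). With batch as a random block they ran from -0.28 to -0.19 (0.392 to 0.692). With replicate 4 coded as batch 2 they ran from -0.20 to -0.10 (0.355 to 0.685). Over all genes the calls went from 1347 to 21, 200 and 306 in the same order. With array medians aligned in place of quantile normalization, and with the values as deposited, no member was called either. The median member difference stayed below 0 in all 22 alternatives. Some of these, such as the stricter threshold, could not change it, and all drew on the same hearts.

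Related genes at Cs 160 cGy were described by lists. Of 26 subunits of complexes II to IV 4 were downregulated (median -0.12), namely Cox5a (-0.27) and Cox7c (-0.18) of complex IV and Uqcrh (-0.28) and Uqcr10 (-0.24) of complex III. Of 14 ATP synthase subunits only Atp5e was (-0.33, list median -0.12). Of 19 assembly factors of complex I, Ndufaf5 (-0.41), Ndufaf4 (-0.33) and Ndufaf7 (-0.26) were downregulated and Dmac2 was upregulated (0.36), with a list median of -0.04. None of 14 regulators of mitochondrial biogenesis was called. Among 60 cytosolic ribosomal protein genes, which like many members have short and abundant transcripts, 7 were downregulated and 2 upregulated (median -0.13). Without replicate 4 the downregulated calls numbered 3 in complexes II to IV, 0 in ATP synthase, 3 in assembly factors, 1 in regulators (Polrmt) and 4 in ribosomal proteins.

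Other gene groups moved in the same hearts. Fasting response genes were upregulated in 5 of 8, among them Pdk4 (1.04), which blocks pyruvate oxidation, and Ucp3 (1.24), and clock genes in 8 of 12, with 3 downregulated, among them Arntl (-2.25), the activator of the clock, and Dbp (1.62), one of its targets. Without replicate 4 the calls were 4 of 8 and 7 of 12, with 3 downregulated. The mean of the fasting list ran from -0.59 to 0.12 in sham hearts and from 0.03 to 0.57 at 160 cGy, and that of the clock list from -0.30 to 0.04 and from 0.04 to 0.34. The clock mean joins genes that moved in opposite directions, which offset one another in it. Cell type markers were called in 2 genes, Myl3 of ventricular muscle (-0.30, 1 of 8 markers) and Alas2 of erythroid cells (0.95, 1 of 2 measured). The mean of the 8 ventricular markers ran from 0.00 to 0.04 in sham hearts and from -0.17, in replicate 4, to 0.04 at 160 cGy. That of 5 smooth muscle markers ran from -0.20 to -0.03 in sham hearts and from -0.50 to 0.88 at 160 cGy, where the highest was replicate 4, and that of atrial markers from -1.96 to 0.36 and from -1.94 to 0.58. All 5 white and all 4 brown adipocyte markers were below 0 at 160 cGy (medians -0.50 and -0.32, none called). The mean of the white adipocyte markers was -1.01, -1.07 and -0.79 in replicates 1 to 3, below every sham heart (-0.60 to 0.68), and 0.64 in replicate 4. Their part in the lower complex I levels was not tested.

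No member was called at the lower Cs doses. At 40, 80 and 120 cGy the median member differences were -0.01, -0.02 and 0.01, with 23, 24 and 16 of 37 below 0, where 0.22%, 0.482% and 0.682% of all genes were called. The lowest single differences were -0.15 (Ndufb8 at 40 cGy), -0.11 (Ndufc2 at 80 cGy) and -0.16 (Ndufs7 at 120 cGy). Ndufa4l2 was 0.29 above sham at 80 cGy (adjusted p = 0.719). Fitted as a straight line over Cs dose, 31 of 37 slopes were below 0, the steepest that of Ndufa1 (-0.00122 per cGy), and none was called (smallest adjusted p = 0.413), beside 1.55% of all genes.

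No member was called after Si ions. At 4, 8, 16 and 32 cGy the median member differences from Si sham were -0.04, -0.01, -0.01 and -0.10, with 26, 21, 21 and 30 of 37 below 0, and 0.159%, 0.128%, 0.0205% and 0.0513% of all genes were called. Differences ran from -0.31 (Ndufb8 at 4 cGy) to 0.16 (Ndufb9 at 32 cGy), with standard errors from 0.078 to 0.23, wider than the 0.066 to 0.15 of the comparison of Cs 160 cGy with sham. Over dose as a line 0% of all genes and no member were called by limma. An unadjusted p under 0.05 was reached by 1000 genes (5.13%), 2 members among them, which is near the share that this threshold gives by itself.

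In a part of the members 3 batch 2 hearts of the Si series stood above the rest. In 14 members, 13 of them among the 28 accessory subunits, Si sham replicate 3, Si 8 cGy replicate 5 and Si 16 cGy replicate 5 were all above the other 26 batch 2 hearts, and in 3 (Ndufb4b, Ndufc1 and Ndufs7) all below, beside 5.08% and 5.34% of all genes. Ndufs5 was at 10.07, 10.12 and 9.96 in them and between 8.77 and 9.42 in the other 26. Ndufa2 was at 10.09, 10.20 and 9.94, against 9.07 to 9.55. Ndufc1 was at 10.84, 10.77 and 10.93, against 11.15 to 11.59. So these hearts lay outside the range of the other 26, on opposite sides in different members. The 3 hearts were noticed in these values and were not a group of the study. The mean of the core subunits was -0.01, -0.05 and 0.00 in them, while that of the matrix arm was 0.48, 0.53 and 0.32, and that of ribosomal proteins 0.35, 0.34 and 0.17. Without the 3 hearts the Si doses still gave no call, with medians of -0.04, -0.04, -0.04 and -0.06.

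After Ti ions no member was called either. At 3, 6.5, 13 and 26 cGy the median member differences from Ti sham were 0.00, -0.08, -0.02 and 0.00, with 18, 28, 21 and 17 of 37 below 0, where 0.0103%, 5.6%, 0.426% and 0% of all genes were called. At 26 cGy, where limma called no gene, 1380 genes (7.08%) had an unadjusted p under 0.05. At 6.5 cGy the smallest adjusted p of a member was 0.288, for Ndufb9 of the membrane arm (-0.19). Without replicate 1 or without replicate 4 of that group 6 members (16.2%) were called, beside 10.3% and 14.3% of all genes. Without replicate 2 or without replicate 3 no member was called, beside 0.533% and 0.743% of all genes. Without replicate 3 the median was -0.01 and 22 members were below 0. Over dose as a line limma called 0% of genes. An unadjusted p under 0.05 was reached by 1103 genes (5.65%), near the share that this threshold gives by itself. The member with the smallest p was Ndufa5 (0.00674 per cGy, adjusted p = 0.871).

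Sham hearts of the 3 radiation types, none of them irradiated, gave a background for these differences. Between Cs and Si sham 5.67% of all genes and 1 member were called. It was Ndufv1, at 11.30, 11.40, 11.35, 11.40 and 11.46 in Cs sham and 11.58, 11.61, 11.55 and 11.63 in Si sham, which did not overlap (-0.16 ± 0.055, adjusted p = 0.175). Between Si and Ti sham 6.35% of all genes and 2 members were called. Ndufa1 was at 9.30, 9.14, 9.71 and 9.03 in Si sham and 9.10, 9.19, 9.04, 9.04 and 8.92 in Ti sham (0.44 ± 0.137, adjusted p = 0.126). Ndufa6, an accessory subunit of the matrix arm, was at 9.73, 9.84, 10.33 and 9.55 and at 9.70, 9.71, 9.81, 9.52 and 9.58 (0.31 ± 0.116, adjusted p = 0.21). In both genes the groups overlapped and Si sham replicate 3 was the highest heart. Without it neither comparison had a call, and the differences were 0.31 (Ndufa1), 0.16 (Ndufa6) and -0.17 (Ndufv1). Between Cs and Ti sham 0.113% of genes and no member were called. All Si sham hearts were in batch 2, so these differences lean on the batch term.

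With batch taken out within each radiation type, Cs 160 cGy had the lowest of the 15 group means in 19 of the 37 members. Ti 6.5 cGy had it in 7. The highest means were most often those of Si sham (9 members) and Si 8 cGy (8 members). Over the 67 hearts the lowest mean was at Cs 160 cGy in 13 members and at Ti 6.5 cGy in 4, and the highest in Si sham in 16 and at Si 8 cGy in 1. For these counts batch was taken out across the 67 hearts together and not within each radiation type. They therefore differ from the counts before them in that step too. Centred over all hearts, the mean of the 37 members was lowest in Cs 160 cGy replicate 4 (-0.30) and Ti 6.5 cGy replicate 3 (-0.24). The other 3 hearts at Cs 160 cGy were at -0.01, -0.04 and 0.00. Cs sham hearts were at 0.07, -0.02 and 0.05 in batch 1 and at -0.03 and -0.04 in batch 2. So the heart at -0.04 lay below the batch 1 sham hearts, and those at -0.01 and 0.00 lay within their range. Batch was taken out here as 1 difference over all hearts. The median batch difference of the members was -0.28 within Cs hearts and -0.16 over all hearts. The highest heart of all was Si 8 cGy replicate 5 (0.29). Within groups the SD of this mean was 0.089, and by role it was 0.041 in the core, 0.099 in the membrane arm and 0.13 in the matrix arm. Over the 67 hearts these SDs were 0.06, 0.041, 0.065 and 0.078.

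**Figure D5:**
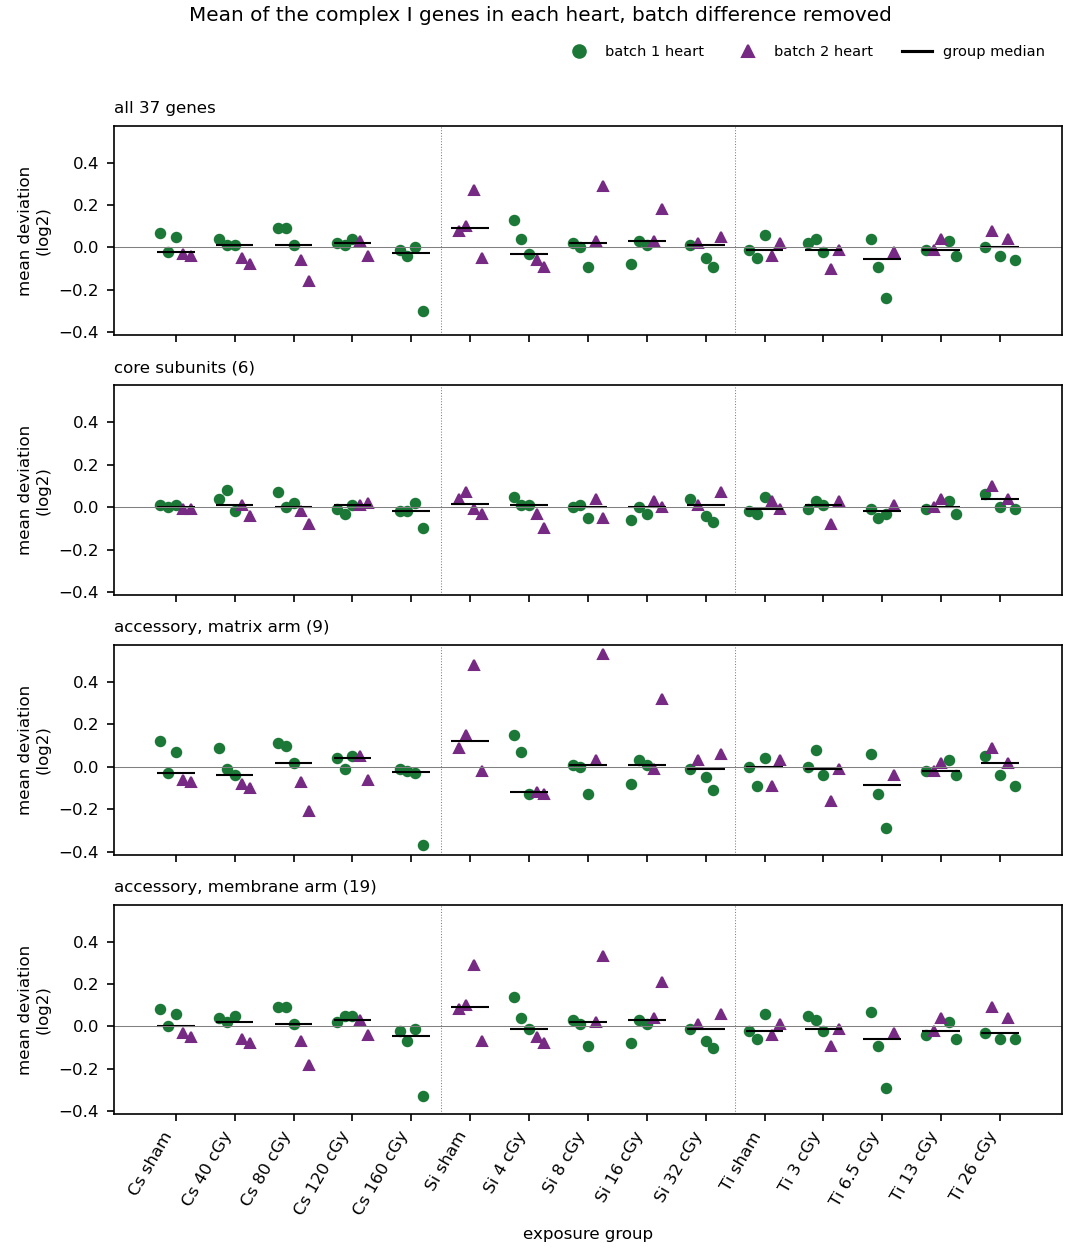
Mean of centred log2 levels in each of the 72 hearts after batch was taken out, for all 37 genes, the 6 core, 9 matrix arm and 19 membrane arm subunits, with groups on the x axis, batch shown by the marker and a line at each group median. Cs 160 cGy replicate 4 (-0.30) and Ti 6.5 cGy replicate 3 (-0.24) are the lowest hearts over all 37 genes, and the core panel is the narrowest.

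Ndufa4 and Ndufa4l2, which are not subunits of complex I in themselves, differed in their order over the groups. Mean Ndufa4 was 11.57 ± 0.14 (SD, n = 4) at Cs 160 cGy and 11.66 ± 0.15 (n = 4) at Ti 6.5 cGy, and between 11.72 and 11.78 in the other 13 groups, whose ranges all overlapped. Both low means held a heart that stood apart. Mean Ndufa4l2 was highest at Cs 160 cGy (7.19 ± 0.25), followed by Ti 13 cGy (7.14 ± 0.17) and Cs 80 cGy (7.08 ± 0.28), and lowest in Cs sham (6.79 ± 0.13, n = 5). Neighbours in this order differed by less than their spread. Over all members the span of the group means was largest in Ndufa1 (0.532) and Ndufs5 (0.522) and smallest in Ndufa8 (0.101). Over the 67 hearts it was largest in Ndufa4l2 (0.435) and Ndufb8 (0.391) and again smallest in Ndufa8 (0.099). There batch was taken out across all hearts and not within each radiation type, so these spans differ in that step too.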

How the data were processed

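RNA from 72 mouse hearts had been hybridised to Clariom S Mouse arrays. The authors processed the arrays with RMA (no version is given in the sources used here) and deposited log2 signals of 29129 probe sets. Array medians of the deposited values ran from 4.17 to 6.35, so 22206 transcript-cluster probe sets were quantile normalized. Symbols came from the platform annotation, and of genes with several probe sets the brightest was kept, which left 19505 genes. The number of arrays limits the precision.

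Group, batch and replicate number came from the labels. Each dose was compared with the sham group of its type in limma 3.58.1 (R 4.3.3), 1 fit per radiation type with batch as a term. Sham groups and batches were compared in a fit of all 72 arrays. P-values were adjusted by the Benjamini-Hochberg method over all genes, and the threshold for a call was 0.25, as in the study's methods. Errors are limma standard errors. Intervals are 95% by the normal distribution, which makes them narrower than the moderated t of limma would. Centred means and correlations used values with batch removed and the 15 groups kept, and carry no p. Group means of single members and their spans over 72 hearts used batch removed within each radiation type. The scripts were tested on simulated data.

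The named genes were the members called in any comparison with sham, the core subunits, Ndufa4 and Ndufa4l2, the 10 genes most like the members' mean, and at most 4 called genes per list. Members and lists were chosen with earlier results of these data known. The labels do not say outright that replicates are separate animals. If they were not, p-values would measure technical spread. Alternatives covered normalization, batch, moderation, a filter on dim genes, the threshold, the replicate block and each heart left out. Replicate numbers did not pair hearts: of 46 same-numbered pairs per type, 5 to 7 had a correlation over 0.1.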

Additional observations from a re-analysis of the deposited data

Results flagged for a closer look

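In groups of 4 to 5 hearts, after batch was taken out, 4 of 75 sets of values had a highest or lowest heart far from the rest by Dixon's criterion, which chance reaches in about 1 of 20. The sets were the members' mean in all 15 groups and the called members in the 3 sham groups and at Cs 160 cGy, and all 4 lay at Cs 160 cGy. The mean of the complex I genes was -0.30 in replicate 4 and between -0.04 and 0.00 in the other 3 hearts. Ndufb3 was at 7.71 in replicate 4, against 8.33 to 8.45. Ndufs6 was at 10.02 in replicate 4, against 10.44 to 10.49. Ndufb5 was at 10.23 in replicate 3, against 10.12 to 10.13.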

How the results depend on the processing

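The count of 13 members called at Cs 160 cGy did not outlast most alternatives. It was 0 with the values as deposited, with array medians aligned, without a batch term, in batch 1 alone, with batch as a random block, at an adjusted p under 0.05 and with the 2 groups fitted alone. It was 1 with all 72 arrays in a fit and 1 with the replicate block, although replicate numbers did not pair hearts. It was 0 with replicate 4 coded as batch 2, an alternative chosen after seeing the data. Leaving out each heart in turn gave 2 to 17 calls, with 2 without Cs 160 cGy replicate 4 or Cs sham replicate 4. Shares over all genes are not given beside these counts. The median member difference was below 0 in all 22 settings, from -0.49 (as deposited) to -0.02 (no batch term). The stricter threshold, the moderation and the filter on dim genes could not change this median. All settings drew on the same hearts, so 22 is no measure of stability. Ndufa4l2 at Cs 160 cGy was -0.0358 with the values as deposited, the reverse of its sign.

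At Ti 6.5 cGy, with no call otherwise, there were 11 as deposited, 2 in batch 1 alone, 2 with trend and robust moderation, 3 with dim genes left out and 0 to 6 with a heart left out (6 without replicate 1 or replicate 4). The values as deposited also gave 15 calls at Si 32 cGy, 1 at Ti 3 cGy and 35 on the line over Si dose, and all 72 arrays in a fit gave 1 at Si 4 cGy. Between Cs and Si sham (1 call) there were 36 as deposited, where Ndufv1 turned to 0.33, 0 with medians aligned, 2 without a batch term, 3 with trend and robust moderation, 5 with dim genes left out, 0 at 0.05 and 0 to 9 with a heart left out (0 without Cs sham replicate 4 or Si sham replicate 3, 9 without Si sham replicate 4). Between Si and Ti sham (2 calls) the same settings gave 0, 0, 1, 4, 5, 0 and 0 to 8 (0 without Si sham replicate 3, 8 without Si sham replicate 4), and 0 with the replicate block. Leaving out the 3 high Si hearts, chosen after seeing the data, gave 0 between Si and Ti sham and 1 between Cs and Si sham. The causes were not tested. Shares over all genes are not given beside the counts in this paragraph, so they are not a result particular to the members. The deposited values were not aligned between arrays, whose medians ran from 4.17 to 6.35. Over all counts of calls, 288 alternatives equalled the main count or stayed within 1.5 times it, and 51 did not. Most main counts were 0, and a count of 0 cannot change at the stricter threshold, so the 288 are no measure of stability.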
